A study of Mus musculus with 6 samples.

Results

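Cytokines of the IL-2 family control the growth, survival and differentiation of lymphocytes. Most of them signal through a shared chain, the common gamma chain encoded by *Il2rg*, joined to a chain that gives specificity. Ligand binding brings the kinases Jak1 and Jak3 together, which phosphorylate Stat factors, above all Stat5, and in activated T cells this raises the IL-2 receptor alpha chain in turn. The receptor genes described are *Il2ra*, *Il2rb*, *Il2rg*, *Il15ra*, *Il21r*, *Il9r* and *Crlf2*, chosen by gene symbol as chains of IL-2 family receptors. *Crlf2*, which encodes the receptor chain for thymic stromal lymphopoietin, is related in structure to the common gamma chain but does not pair with it. All 7 were found among the 35602 genes of the count table and again in the tables of the remaining libraries.

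Splenic CD4+ T cells of mice were stimulated through CD3 and CD28 for 72 h and treated with MAPK13-IN-1, which inhibits the product of *Mapk13*, a p38 family kinase, or with its solvent DMSO. Each group has 3 libraries. The labels of replicates 2 and 3 give wild-type cells and an addition after day 1 of culture, of 17.1 µM inhibitor or of 0.1 µl DMSO, whereas those of replicate 1 give neither genotype, dose nor time of addition. The description of the whole series instead has the inhibitor present during the 72 h of stimulation, which conflicts with an addition after day 1. The study describes a single culture of this kind for its RNA-seq, at the inhibitor dose labelled for replicates 2 and 3, and the labels do not say whether both preparations followed it. Strain, age and the number of animals are not given in the labels. Nothing in the labels says that replicates came from separate cultures or animals, so p-values measure the spread between these libraries, which may be technical.

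Replicates 2 and 3 were prepared with poly-T beads and deposited as read counts, with totals of 26874805 and 28487403 for DMSO and of 33854760 and 32617702 for MAPK13-IN-1. The replicate 1 pair was prepared with a stranded kit and deposited as normalized values, taken to be FPKM (fragments relative to transcript length and library size) because of how they are distributed. Its depth is unknown, it entered no test, and its differences, 1 library against 1, have no replicate check. The pair shared the changes of the other libraries only in part. The Spearman correlation of its log2 ratios with count log2 fold changes was 0.33 over 11370 tested genes with at least 1 FPKM there. Among genes with at least 1 FPKM in either library of the pair, 2664 of 4581 genes that were lower in the count libraries (58.2%) were also lower in the pair. Of 3243 genes that were higher in the count libraries, 2413 (74.4%) were also higher in the pair. Each receptor, ligand and gene list is therefore described in both preparations, and single genes of the lists in the count libraries except where the pair is named. Over all genes tested, 9520 of 15825 had a log2 ratio above 0 in the pair. Because they were normalized separately, levels are compared within a preparation.

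In the count libraries, 5 of the 7 receptor genes were lower with MAPK13-IN-1 and 0 were higher. Calls were made by the quasi-likelihood test of edgeR (Benjamini-Hochberg adjusted p under 0.05 over 16269 genes). Of all genes tested, 32.3% were lower and 31.5% were higher by the same rule. *Il4ra* and *Il7r*, whose products also pair with the common gamma chain, are not among the 7. By that rule *Il4ra* was lower (log2 fold change −0.45) and *Il7r* was higher (0.40), as described below. SE denotes a standard error derived from the F statistic of the edgeR test. All 7 receptors passed the filter on low counts. Their median log2 fold change was −0.78, beside 0.01 for all genes tested. In the replicate 1 pair, *Il2ra* and *Crlf2* were lower by more than 1.5 times on the log2(FPKM + 1) scale and 0 receptors were higher by that much. Over all genes this held for 5.46% (lower) and 12.9% (higher). The median log2 ratio of the 7 receptors in the pair was −0.06, beside 0.07 for all genes. *Il2rb*, *Il2rg* and *Il21r*, which fell in the count libraries, had ratios near 0 in the pair. In bulk RNA, fewer cells of a type and less RNA per cell cannot be told apart.

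*Il2ra* encodes the alpha chain (CD25), which raises the affinity of the receptor for IL-2 and is induced by T cell activation. It was counted 24844 and 26192 times with DMSO and 13048 and 14558 times with MAPK13-IN-1. Scaled to CPM (counts normalized to library size with TMM factors), these were 963 and 963 with DMSO and 368 and 429.6 with the inhibitor. Both inhibitor libraries lay below both DMSO libraries, which were nearly equal. The log2 fold change was −1.27 ± 0.0688 (SE, 95% interval −1.43 to −1.12, edgeR adjusted p = 2.00e-07). The replicate 1 pair had 384 FPKM (DMSO) and 237 FPKM (inhibitor), a log2 ratio of −0.69. The gene was thus lower with the inhibitor in all 3 inhibitor libraries than in the DMSO libraries of their own preparation.

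*Crlf2* had the lowest log2 fold change of the 7. It was counted 1818 and 1934 times with DMSO and 904 and 1055 times with the inhibitor, or 70.5 and 71.1 CPM against 25.5 and 31.1 CPM. The groups did not overlap, and the inhibitor libraries were the more spread. This gave a log2 fold change of −1.32 ± 0.0955 (SE, 95% interval −1.54 to −1.11, edgeR adjusted p = 1.19e-06). Values in the replicate 1 pair were 67.2 FPKM (DMSO) and 36.5 FPKM (inhibitor), a log2 ratio of −0.86. *Crlf2* and *Il2ra* had the lowest log2 fold changes of the 7 receptors, and also the lowest log2 ratios in the replicate 1 pair.

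*Il2rb* encodes the beta chain, which signals for both IL-2 and IL-15. Its counts were 26661 and 29012 with DMSO and 16555 and 18372 with the inhibitor, or 1034 and 1067 CPM against 466 and 542 CPM. The groups did not overlap. The log2 fold change was −1.06 ± 0.0676 (SE, 95% interval −1.21 to −0.91, edgeR adjusted p = 5.58e-07). The replicate 1 pair showed no such difference, at 194 FPKM (DMSO) and 198 FPKM (inhibitor), a log2 ratio of 0.03.

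*Il2rg* encodes the common gamma chain and was counted 9892 and 10700 times with DMSO and 7890 and 8152 times with the inhibitor. This corresponds to 384 and 393 CPM against 222 and 241 CPM. The inhibitor libraries were again below both DMSO libraries, by less than for the alpha and beta chains. Its log2 fold change was −0.75 ± 0.0572 (SE, 95% interval −0.87 to −0.62, edgeR adjusted p = 1.76e-06). FPKM of *Il2rg* in the replicate 1 pair were 282 (DMSO) and 271 (inhibitor), a log2 ratio of −0.06. The GENCODE annotation marks *Il2rg* as overlapping another locus, and reads from such loci cannot be told apart in counts made without strand.

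*Il21r* encodes the specific chain of the IL-21 receptor, present on activated T cells and on B cells. It was counted 14930 and 16655 times with DMSO and 11382 and 12693 times with the inhibitor, or 579 and 612 CPM against 321 and 375 CPM. The groups did not overlap. Its log2 fold change was −0.78 ± 0.0716 (SE, 95% interval −0.94 to −0.62, edgeR adjusted p = 6.27e-06). *Il21r* was not lower in the replicate 1 pair, at 129.9 FPKM (DMSO) and 145 FPKM (inhibitor), a log2 ratio of 0.16.

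The remaining receptors did not pass the test. *Il15ra* encodes the chain that binds IL-15 and presents it to neighbouring cells. It was at 42.9 and 40.9 CPM with DMSO and at 37.3 and 36.3 CPM with the inhibitor. These groups did not overlap either, as was the case for 41.4% of all genes tested in the downward direction. The log2 fold change was −0.19 ± 0.078 (SE, 95% interval −0.36 to −0.02, edgeR adjusted p = 0.0551). Without MAPK13-IN-1 replicate 2 or 3 the adjusted p was 0.0208 or 0.0493, within a range of 0.0208 to 0.507 over all alternatives. *Il15ra* was at 12.4 FPKM (DMSO) and 16.2 FPKM (inhibitor) in the replicate 1 pair, a log2 ratio of 0.35.

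*Il9r* encodes the specific chain of the IL-9 receptor and was the least abundant member. It was at 9.89 and 10.2 CPM with DMSO and at 11.1 and 9.86 CPM with the inhibitor, so the groups overlapped. The log2 fold change was 0.06 ± 0.127 (SE, 95% interval −0.22 to 0.35, edgeR adjusted p = 0.674), and −0.026 without MAPK13-IN-1 replicate 2. It was at 0.759 and 0.574 FPKM in the replicate 1 pair, a log2 ratio of −0.16.

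**Figure D1:**
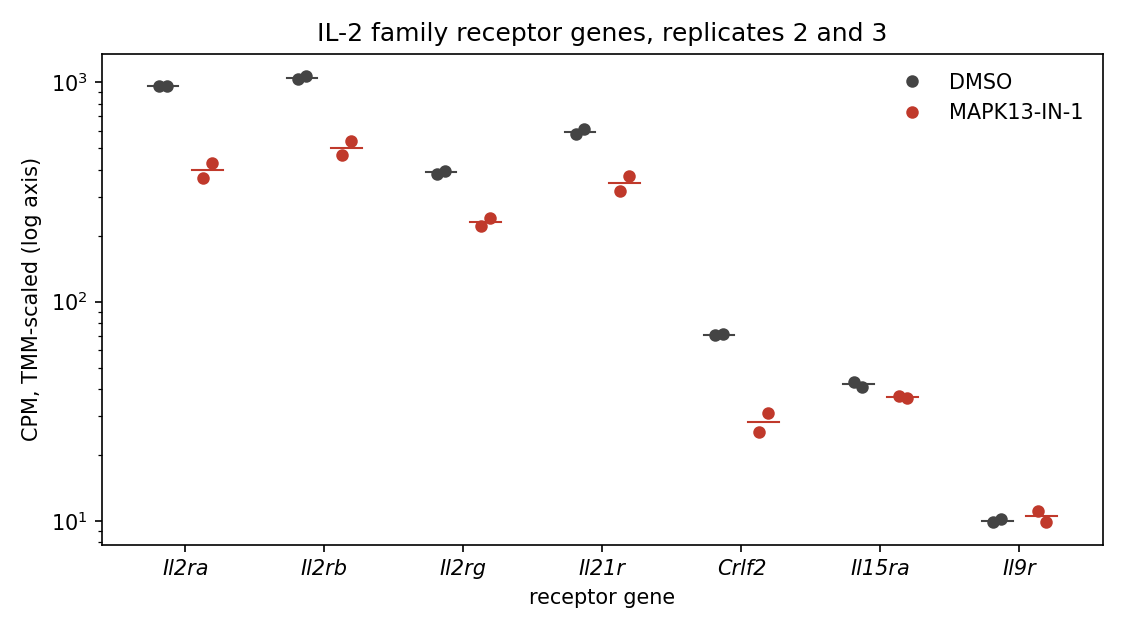
Level of each receptor gene in the 4 count libraries, as TMM-scaled CPM on a log axis; points are libraries and bars are group means (2 libraries per group). The MAPK13-IN-1 points of *Il2ra*, *Il2rb*, *Il2rg*, *Il21r*, *Crlf2* and *Il15ra* lie below the DMSO points, and those of *Il9r* overlap them.

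Levels of different genes were compared per kilobase of exon. With DMSO, *Il2rb* was at 245 ± 5.42 CPM per kilobase (SD, n = 2), *Il21r* at 234 ± 9.30 and *Il2rg* at 233 ± 4.16. These lay close together, and *Il21r* and *Il2rg* did not differ beyond their spread. *Il2ra* followed at 185 ± 0.0485, *Crlf2* at 48.4 ± 0.296, *Il15ra* at 18.3 ± 0.619 and *Il9r* at 2.22 ± 0.0465 CPM per kilobase. With the inhibitor, *Il2rg* (139 ± 7.74, SD, n = 2) and *Il21r* (126 and 147) did not differ beyond their spread, and the libraries of *Il21r* and *Il2rb* (109 and 126) overlapped. *Il2ra* was at 76.5 ± 8.42 CPM per kilobase. *Crlf2* came close to *Il15ra* with the inhibitor, at 19.4 ± 2.74 beside 16.1 ± 0.319 CPM per kilobase, without overlap of the libraries. The order was another in the replicate 1 DMSO library, where *Il2ra* stood first, above *Il2rg*, *Il2rb*, *Il21r*, *Crlf2*, *Il15ra* and *Il9r*, by the FPKM given above.

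The ligands of these receptors were measured in the same libraries, in a list that also holds *Il13*, which is related to *Il4* but binds none of the 7 chains. Of these 8 genes, 6 were tested, 5 were lower (83.3%, beside 32.3% of all genes) and 1 was higher with MAPK13-IN-1 in the count libraries, with a median log2 fold change of −2.29. In the replicate 1 pair the list went mostly the other way, with 5 of the 6 higher and 1 lower by more than 1.5 times (12.9% and 5.46% over all genes) and a median log2 ratio of 1.11. *Il2*, the growth factor that activated CD4+ T cells make for themselves and for regulatory T cells, was at 46.3 and 56.8 CPM with DMSO and 11.9 and 17.9 CPM with the inhibitor. The groups did not overlap, and the log2 fold change was −1.80 ± 0.165 (SE, edgeR adjusted p = 6.18e-06). In the replicate 1 pair the direction was the opposite, with 6.04 FPKM (DMSO) and 71.1 FPKM (inhibitor), a log2 ratio of 3.36.

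*Il4* and *Il13*, cytokines of type 2 helper cells, had log2 fold changes of −4.72 and −4.62 in the count libraries. *Il4* was at 9.31 and 8.42 CPM with DMSO and 0.310 and 0.354 CPM with the inhibitor, and it was also lower in the replicate 1 pair (28.9 against 13.1 FPKM). *Il13* was at 28.5 and 32.0 CPM with DMSO and 1.01 and 1.45 CPM with the inhibitor, but was higher with the inhibitor in the pair (16.5 against 39.9 FPKM). *Il9*, a T cell and mast cell growth factor, had a log2 fold change of −2.79 from 73 and 81 counts to 16 and 13 counts. It too was higher with the inhibitor in the pair, at 65.0 against 131 FPKM. *Il21*, made by follicular helper cells, fell less (−0.41, SE 0.106) and was higher in the pair, at 53.3 against 86.9 FPKM. *Il15*, made mainly by myeloid and stromal cells, was higher with the inhibitor in both preparations. It was at 1.20 and 1.51 CPM with DMSO and 10.7 and 9.15 CPM with the inhibitor (log2 fold change 2.87, SE 0.197), and at 0.571 and 3.76 FPKM in the pair. *Il7* had 0 counts and *Tslp* at most 2 counts in each of the 4 count libraries. There, 3 counts, the limit that a count of 0 allows, are worth 0.0845 to 0.116 CPM, for counting error only. In the pair *Il7* was at 0.00557 and 0.0368 FPKM and *Tslp* at 0 and 0.396 FPKM.

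**Figure D2:**
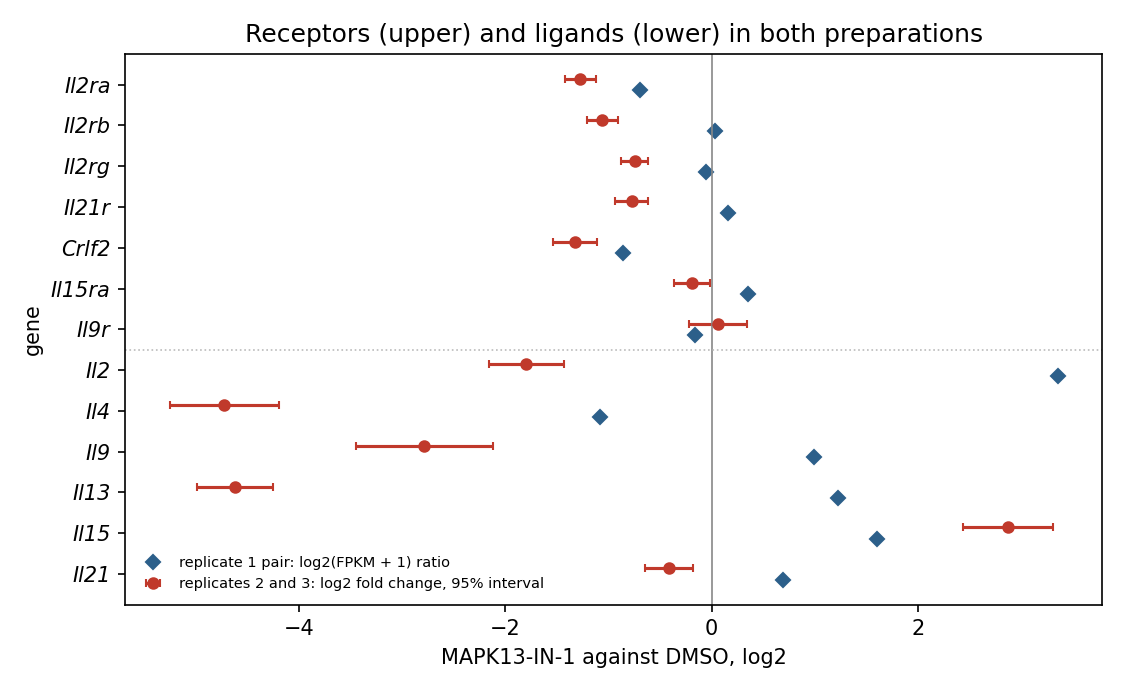
MAPK13-IN-1 against DMSO for the 7 receptor genes (above the dotted line) and the 6 tested genes of the ligand list (below it). Circles are log2 fold changes in the count libraries with 95% intervals (2 libraries per group), and diamonds are log2(FPKM + 1) ratios of the replicate 1 pair, 1 library against 1; *Il2* lies at −1.80 in the former and at 3.36 in the latter.

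Another 4 genes encode chains that pair with these receptors or bind a cytokine of the ligand list. Of these, 3 were tested, and 1 was lower (33.3%, beside 32.3% of all genes) and 2 were higher (66.7%, beside 31.5%). *Il4ra*, the IL-4 receptor alpha chain that joins the common gamma chain, was at 506 and 505 CPM with DMSO and 358 and 384 CPM with the inhibitor, a log2 fold change of −0.45 (SE 0.0536). *Il7r*, which pairs with the common gamma chain for IL-7 and with the *Crlf2* product for thymic stromal lymphopoietin, rose from 43.7 and 51.0 CPM to 62.8 and 62.0 CPM (0.40, SE 0.084). *Il13ra1* was low, at 32 and 32 counts with DMSO and 77 and 75 counts with the inhibitor (0.86, SE 0.259), and *Il13ra2* had 0 counts in all 4 libraries. In the replicate 1 pair all 3 tested chains had log2 ratios above 0 (9520 of 15825 over all genes), with a median of 0.31. Of these chains, 0 were higher by more than 1.5 times, beside 12.9% of all genes. For *Il13ra1*, at 0.112 and 0.462 FPKM, this rests on the pseudocount, since the log2 ratio was 0.39 with 1 FPKM added and 1.41 with 0.1 added.

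Downstream of the receptors, a list of 28 kinases, Stat factors, adaptors and negative regulators was tested in the count libraries. Of these, 10 were lower (35.7%, beside 32.3% of all genes), 10 were higher (35.7%, beside 31.5%) and 8 did not pass the test, with a median log2 fold change of −0.05. The numbers were 14 lower and 9 higher without MAPK13-IN-1 replicate 3. In the pair 22 of the 28 had a log2 ratio above 0 (9520 of 15825 over all genes), with a median of 0.14, and 5 were higher and 0 lower by more than 1.5 times, beside 12.9% and 5.46% of all genes. *Jak3*, the kinase bound to the common gamma chain, was at 522 and 523 CPM with DMSO and 252 and 287 CPM with the inhibitor. This was a log2 fold change of −0.95 ± 0.0649 (SE, edgeR adjusted p = 8.08e-07), whereas the pair had 83.4 and 92.1 FPKM. *Jak1*, which binds the beta chain and the other specific chains, rose by contrast (0.59, SE 0.061), and *Jak2*, which serves the *Crlf2* chain, fell (−0.77, SE 0.0504). Among the Stat factors, *Stat6* (−0.71) and *Stat5a* (−0.30) were lower, *Stat3* (0.33) was higher, and *Stat5b* did not pass (−0.04, adjusted p = 0.545). The pair had higher *Stat5a* with the inhibitor, 102 against 198 FPKM, and *Stat6* was not lower there (46.4 against 54.7 FPKM).

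*Cish* and *Socs1*, feedback inhibitors induced by Stat5, had log2 fold changes of −1.39 (SE 0.0847) and −1.38 (SE 0.0836) in the count libraries. *Cish* went from 382 and 403 CPM to 135 and 165 CPM, and *Socs1* from 92.7 and 103 CPM to 35.2 and 39.8 CPM. In the pair neither was lower, with 146 against 161 FPKM for *Cish* and 71.9 against 79.1 FPKM for *Socs1*. *Irs2*, an adaptor of the IL-4 receptor, fell in the count libraries (−1.26, SE 0.0647) and was higher in the pair (6.85 against 19.6 FPKM).

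The 18 genes known to answer IL-2 and Stat5 include *Il2ra* and, from the signalling list, *Cish* and *Socs2*. Of the 18, 16 were lower, 1 was higher and 1 did not pass the test in the count libraries (88.9% lower, beside 32.3% of all genes). Their median log2 fold change was −1.12. *Lta*, a secreted cytokine of the TNF family, was at 466 and 451 CPM with DMSO and 69.1 and 77.4 CPM with the inhibitor (−2.65, SE 0.0669). *Tnfrsf4* (OX40), a costimulatory receptor, fell by 1.76 and *Bcl2*, an inhibitor of cell death, fell by 1.46 on the log2 scale. The kinase genes *Pim1* (−1.25) and *Pim2* (−0.90) and the cyclin gene *Ccnd2* (−0.51) were also lower, and *Bcl2l1* was the gene that rose (0.19). The pair did not share this direction. There 14 of the 18 genes had a log2 ratio above 0, beside 9520 of 15825 over all genes, and the median was 0.20. *Bcl2* was lower in both preparations, with 53.2 FPKM (DMSO) and 24.5 FPKM (inhibitor) in the pair. *Il2ra*, *Lta* (238 against 202 FPKM) and *Tnfrsf4* (321 against 266 FPKM) also had log2 ratios below 0 there.

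Cytokine receptors outside the family, 30 of 35 tested, had 10 lower (33.3%, beside 32.3% of all genes) and 10 higher (33.3%, beside 31.5%) and a median log2 fold change of 0.07. In the pair 22 of the 30 had a log2 ratio above 0 (9520 of 15825 over all genes), with a median of 0.39. By more than 1.5 times, 12 were higher and 1 lower there, beside 12.9% and 5.46% of all genes. *Il12rb1*, a chain of the IL-12 and IL-23 receptors, was at 467 and 477 CPM with DMSO and 149 and 176 CPM with the inhibitor (−1.54, SE 0.0744), and was the gene lower by more than 1.5 times in the pair (143 against 93.1 FPKM). *Il27ra* (−1.81), *Il3ra* (−1.69), *Il12rb2* (−1.14) and *Il1rl1* (−3.13) were lower, while *Il1r2*, a decoy receptor for IL-1, was higher (1.38) along with *Il17ra* (0.41) and *Ifnar1* (0.22). *Il12rb2* went the opposite way in the pair, at 12.4 against 29.4 FPKM. *Il10ra* did not pass (−0.06, edgeR adjusted p = 0.493). No test of the difference between these receptors and those of the IL-2 family was made.

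In the count libraries, genes of CD4 T cells and of regulatory T cells were mostly lower, as the receptors were. Those of B cells and of macrophages and dendritic cells were mostly higher. The part of cell types in the result was not tested. Of 8 genes of CD4 T cells, 6 were lower (75.0%, beside 32.3% of all genes), 0 were higher and 2 did not pass, with a median log2 fold change of −0.95, below that of the receptors. Their summed level was 1925 and 1958 CPM with DMSO and 1184 and 1307 CPM with the inhibitor. *Cd5*, the most abundant with DMSO but not with the inhibitor, fell by 1.29 on the log2 scale, as did *Cd3g* (−1.56), *Cd3e* (−1.37), *Lck* (−1.20), *Cd3d* (−0.71) and *Cd28* (−0.53), while *Cd4* (275 and 276 CPM, then 267 and 283 CPM, adjusted p = 0.993) and *Zap70* (0.11, adjusted p = 0.0931) did not pass. In the replicate 1 pair the summed level was 1112 FPKM (DMSO) and 1028 FPKM (inhibitor). There 4 of the 8 genes had log2 ratios below 0 and 4 above 0 (9520 of 15825 above 0 over all genes), with a median of 0.001. By more than 1.5 times, 0 were lower and 0 higher, beside 5.46% and 12.9% of all genes.

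Regulatory T cells carry CD25 at all times. Of 7 of their genes, *Foxp3*, *Ikzf4* and *Tnfrsf18* are also in the list that answers IL-2 and Stat5. Of the 7, 6 were lower (85.7%, beside 32.3% of all genes) and 1, *Ikzf2*, did not pass. Their summed level was 1015 and 1011 CPM with DMSO and 261 and 325 CPM with the inhibitor, and *Tnfrsf18* had the highest mean over the 4 libraries. *Foxp3*, the lineage factor, was at 58.4 and 60.6 CPM with DMSO and 20.3 and 23.8 CPM with the inhibitor (−1.44, SE 0.0926), and at 13.6 and 14.6 FPKM in the pair. In the pair 6 of the 7 genes had log2 ratios above 0 (9520 of 15825 over all genes), with a median of 0.30. The summed level there was 824 FPKM (DMSO) and 647 FPKM (inhibitor). *Izumo1r*, which fell most of the list (−3.74), was the one gene below 0 there, at 454 against 204 FPKM.

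B cell transcripts were present in libraries labelled as CD4+ T cells, although the methods of the study name a CD4 T cell isolation kit, which is meant to remove B cells. The 11 markers summed to 1151 and 1127 CPM with DMSO and 1320.2 and 1345 CPM with the inhibitor, with 7 higher (63.6%, beside 31.5% of all genes), 2 lower and 2 that did not pass, and *Pax5* had the highest mean over the 4 libraries. In the pair the B cell sum was 52.4 FPKM (DMSO) and 36.7 FPKM (inhibitor), beside 1112 and 1028 FPKM for the CD4 T cell genes. The direction was mostly the opposite there, with 9 of the 11 markers at log2 ratios below 0 (6223 of 15825 over all genes) and a median of −0.35. By more than 1.5 times, 3 were lower and 0 higher in the pair, beside 5.46% and 12.9% of all genes. B cells also carry *Il2rg*, *Il21r* and *Il4ra*, so the source of these receptor counts cannot be assigned to T cells alone.

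Other cell types were scarce. The 2 CD8 T cell genes summed to 11.7 and 10.9 CPM with DMSO and 5.49 and 7.85 CPM with the inhibitor, both lower by the test (32.3% of all genes were). In the pair they summed to 3.49 FPKM (DMSO) and 8.39 FPKM (inhibitor), and both had ratios above 0 (9520 of 15825 over all genes). Of 7 NK cell genes 3 were tested and 1 was higher (33.3%, beside 31.5% of all genes). Their sum, 86.9 and 82.6 CPM with DMSO and 77.1 and 79.1 CPM with the inhibitor, was mostly *Tbx21*, also a type 1 helper cell gene, and *Klra8* was at 0. The NK cell sum in the pair was 23.6 FPKM (DMSO) and 35.5 FPKM (inhibitor). Macrophage and dendritic cell genes were low but higher with the inhibitor, at 16.4 and 15.9 CPM against 52.7 and 45.2 CPM summed over 10 genes, led by *Cd68*, with 7 of 9 tested genes higher (77.8%, beside 31.5% of all genes) and 0 lower. They were higher in the pair too, with sums of 4.39 and 15.4 FPKM. Mast cell and basophil genes summed to 3.26 and 2.94 CPM with DMSO and 30.7 and 32.6 CPM with the inhibitor, most of it *Kit*, with *Mcpt8* and *Fcer1a* at 0 in all 4 libraries, and to 0.0877 and 0.704 FPKM in the pair. Of 7 genes of type 2 innate lymphoid cells, 3 were lower (42.9%, beside 32.3% of all genes) and 3 higher (42.9%, beside 31.5%), with a sum of 44.4 and 43.5 CPM against 104.8 and 97.6 CPM, most of it *Rora*, and of 6.54 against 13.7 FPKM in the pair. Neutrophil genes summed to at most 0.354 CPM, with *Ly6g* the most abundant and *S100a9* at 0, and to 0.496 and 0.233 FPKM in the pair.

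The genes with profiles most like *Il2ra* over the 4 count libraries were *C2cd2l*, *Gm11998* and *Mapk11*, at Euclidean distances of 0.0152, 0.0294 and 0.0298 between centred profiles of log2(CPM + 0.5). With 4 libraries in 2 groups, such a distance mostly reflects the size of the group difference. Their log2 fold changes were −1.33, −1.79 and −1.30, and for *Gm11998*, at 57 and 60 counts with DMSO, the added 0.5 CPM shrinks the difference. The pair was not used for this likeness, and there *C2cd2l* (log2 ratio 0.10) and *Gm11998* (0.33) were not lower with the inhibitor, while *Mapk11* was at −0.36.

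The positions of the genes were not used to choose them. In RefSeq (GRCm38.p6), *Il2ra* at chr2:11642792-11693194 and *Il15ra* at chr2:11705172-11733985 are neighbours, with 11977 bases between them. Their log2 fold changes were −1.27 and −0.19. *Il21r*, at chr7:125603252-125634397, lies 23777 bases from *Il4ra*, at chr7:125552271-125579474, with log2 fold changes of −0.78 and −0.45. *Crlf2* is at chr5:109554709-109559128, *Il9r* at chr11:32187544-32205283, *Il2rb* at chr15:78479256-78511621 and *Il2rg* at chrX:101264385-101268255.

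RefSeq promoters (GRCm38.p6, 250 bases before to 50 after a listed start) were matched for 6 of the 7 genes, with 7 promoters in all. Those of *Il2ra* and *Il2rg* lie at the first base of the gene as placed above, and those of *Il15ra*, *Crlf2*, *Il21r* and *Il9r* at starts further into the gene. They were searched on both strands for 14 letter patterns, some of which overlap one another. TTCNNNGAA, the Stat pattern, was in 0 of the 7 and in 8.3% of all 32851 promoters, and its strict form TTCCNGGAA in 0 and in 1.15%. The Tcf patterns CTTTGAA and CTTTGAT were in 1 (*Il15ra*) and 0 of the 7, and in 5.14% and 3.73% of all. Of 4 NF-kB patterns of 10 letters, 3 were in 0 of the 7 and in 0.0396%, 1.63% and 0.411% of all, and the fourth was in the *Il2ra* promoter and in 0.107% of all. It was added to the search after that promoter had been read, so its share is a description only. TGANTCA was in 1 (*Il15ra*, 7.81% of all), TTTCC in 3 (61.3%), GGAAAC in 0 (19.2%), TTTCCAC in 1 (*Il2rg*, 4.76%), an IRF pattern of 10 letters in 0 (3.44%) and TTCC in 5 (96.0%). Besides TTCC, no pattern was in the promoters of both *Il2ra* and *Crlf2*. The 250 bases before the start of *Il2ra*, a gene lower in both preparations, are shown with that NF-kB match in capitals (GRCm38.p6, chr2:11642542-11642791, + strand). A match describes the letters and not a site in use.
Il2ra: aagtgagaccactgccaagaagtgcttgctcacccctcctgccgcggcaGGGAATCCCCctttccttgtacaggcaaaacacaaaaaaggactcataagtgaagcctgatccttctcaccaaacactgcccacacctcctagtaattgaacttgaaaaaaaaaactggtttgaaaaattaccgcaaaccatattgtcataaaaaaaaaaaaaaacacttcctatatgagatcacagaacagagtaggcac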

How the data were processed

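RNA-seq of 6 libraries was used. For replicates 2 and 3 the authors deposited raw counts per gene, and their processing notes list fastp 0.21.0, HISAT2 2.1.0, StringTie 2.1.5 and DESeq2 1.30.1 with build mm10. For the replicate 1 pair the authors deposited values read here as FPKM, an inferred unit: they are not whole, sum to 405150 and 390729, and their ratio to CPM falls with exon length (Spearman −0.71 over 10243 genes). The annotation and the counting strand are not given in the sources used here.

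The count analysis used edgeR 4.0.16 (R 4.3.3): filterByExpr (minimum count 10, minimum total 15; 16269 genes kept), TMM scaling (factors 0.960 and 0.955 for DMSO, 1.05 and 1.04 for MAPK13-IN-1), and the quasi-likelihood test of 2 libraries against 2 with Benjamini-Hochberg adjustment. Log2 ratios of the pair use a pseudocount of 1 and have no p-value. The step was tested on simulated data, whose outcome is not given here. Replicates of a group differed by a mean chi-square per gene of 2.94 (DMSO) and 8.82 (MAPK13-IN-1), more than sampling noise gives, and were kept apart. Exon lengths are unions of exons in GENCODE (GRCm38).

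The members and gene lists were chosen with earlier results of these data known. Named genes are the receptors, all genes of lists of up to 10, the 6 with the highest mean CPM and the 6 with the smallest p of longer lists, and the 3 nearest to *Il2ra*. Some single genes that meet this rule are left out of the text and not reported here. The 1.5-fold rule for the pair and the promoter patterns were chosen after seeing the data. Alternatives were RLE, upper-quartile and library-total scaling, other filters, DESeq2 1.42.0, a replicate block, leaving out each library, an adjusted p under 0.01, and a pseudocount of 0.1.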

Additional observations from a re-analysis of the deposited data

How the results depend on the processing

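The 5 receptors lower in the count libraries were lower and passed the test under each of 11 alternatives, with log2 fold changes of −1.40 to −1.15 for *Il2ra*, −1.48 to −1.19 for *Crlf2*, −1.18 to −0.93 for *Il2rb*, −0.81 to −0.62 for *Il2rg* and −0.90 to −0.65 for *Il21r*. *Il15ra* passed in 2 of the 11, with values of −0.23 to −0.06. *Il9r* passed in 0 and turned to −0.026 without MAPK13-IN-1 replicate 2; the cause was not tested. Of the 28 signalling genes, 9 to 14 were lower and 8 to 12 higher, with 14 and 9 without MAPK13-IN-1 replicate 3. These alternatives do not bear on the difference between the preparations. Scaling by library totals moved the median of all genes from 0.01 to 0.14, and the genes lower and higher from 5252 and 5122 to 4302 and 6176. With the replicate number as a block, 5 receptors were lower and 0 higher, and 5384 and 5261 genes in all. Same-numbered libraries did not deviate together (correlation 0.005), so the numbers were not taken as pairs. With each library left out in turn, 4433 to 5675 genes were lower and 4298 to 5268 higher, the lone library of a group being assumed to vary like the others. A pseudocount of 0.1 moved the pair's ratio of *Il9r* from −0.16 to −0.35 and kept the number of receptors lower there at 2. With 2 libraries per group in 1 preparation and 1 pair in the other, preparation and replicate number cannot be told apart, and the depth of the pair is unknown.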
